A study of Rattus norvegicus with 12 samples.

Results

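Neonatal rat ventricular myocytes (NRVMs), heart muscle cells taken from newborn Sprague-Dawley rats and kept in culture, were transfected with a small interfering RNA and then treated with phenylephrine (PE). The comparison described here sets the 3 libraries labelled siSlc25a26 PE, transfected with siRNA against Slc25a26, against the 3 labelled siNeg PE, transfected with the negative control siRNA, and so uses 6 of the 12 libraries of the series. Members were taken by their sample labels alone. In both groups PE was added 12 h after transfection and left for 36 h, and the cells were grown in DMEM with insulin, transferrin, selenium and antibiotics. The other 6 libraries carry the same siRNAs without PE and share no library with this comparison. The labels do not say whether the 3 libraries of a group came from separate cell preparations, so p-values measure only the spread between these libraries, which may be technical.

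PE is an α1-adrenergic agonist, and NRVMs exposed to it grow in size and raise a fetal gene programme that includes the natriuretic peptides and skeletal actin. Slc25a26 encodes the carrier that brings S-adenosylmethionine, the methyl donor of the cell, into mitochondria. The design asks how cells given this siRNA differ from control cells once both have been exposed to a hypertrophic stimulus.

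The level of the targeted gene bears on every other value. Slc25a26 was at 111, 102 and 82.6 CPM (counts per 1e+06, with TMM-scaled library sizes) in the siNeg PE libraries and at 97.2, 102 and 95.7 CPM in the 3 libraries that carry the label siSlc25a26 PE. The 2 groups overlapped, and all 3 values of the second group lay inside the range of the first. The fitted log2 fold change was -0.01 with an SE of 0.10, and its 95% interval ran from -0.29 to 0.27, or 0.820-fold to 1.21-fold. The edgeR quasi-likelihood test gave a Benjamini-Hochberg adjusted p of 0.969, and a two-sided exact permutation test gave p = 0.9, where the smallest p that 3 against 3 libraries allow is 0.1. In the libraries without PE, Slc25a26 was lower in siSlc25a26, with means of 15.6 CPM against 32.9 CPM and a log2 fold change of -1.08. On the scale of all 12 libraries it was at 29.3 to 33.2 CPM in siNeg and 86.2 to 113 CPM in siNeg PE. The change with siSlc25a26 differed between the 2 conditions by 1.06 on the log2 scale (SE 0.13, edgeR adjusted p = 4.66e-04, n = 3 libraries in each of 4 groups). The level of the targeted gene under PE thus goes against the label, and the 3 libraries are called the labelled-knockdown libraries throughout, with the siNeg PE libraries as the controls. Every direction given here is drawn from these labels. Nap1l5, which encodes a nucleosome assembly protein-like histone chaperone, was lower in both contrasts. It was at 13.2, 15.3 and 18.5 CPM in the controls and 8.37, 7.84 and 6.55 CPM in the labelled-knockdown libraries, a 2.07-fold fall (edgeR adjusted p = 6.36e-04), its log2 fold change without PE was -0.84, and it was the 1 of 5 tested Nap1l family genes that was called. Whether the labels name the siRNA of these libraries correctly was not tested.

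**Figure D1:**
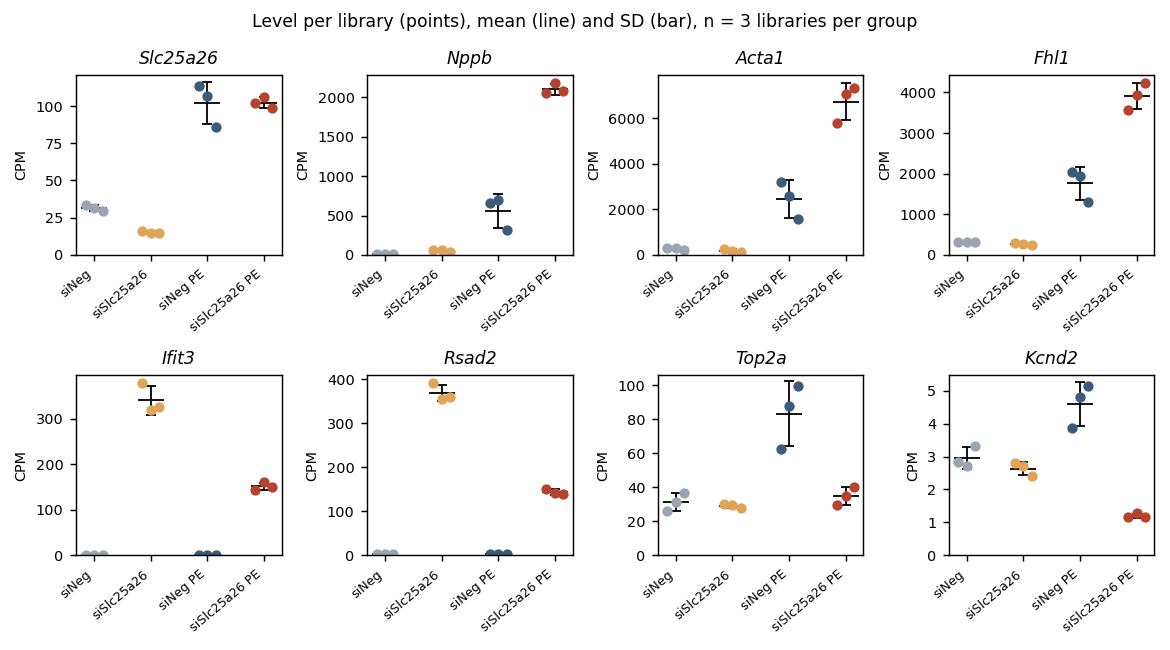
Level of 8 genes in CPM, scaled over all 12 libraries (y axis, from 0), in the 4 groups (x axis). Points are libraries, the horizontal line is the mean and the bar the SD of 3 libraries; Slc25a26 overlaps between the 2 PE groups but not between the groups without PE, and the other 7 genes do not overlap between the 2 PE groups.

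Each library held between 24770972 and 27774608 counts, so that 3 counts, taken as the floor of detection, correspond to 0.108 to 0.121 CPM, a limit that covers counting error only. Replicates of a group differed by more than sampling noise, with chi-square values per degree of freedom of 7.09 to 21.6. None was thus the same library sequenced again, but these values cannot tell whether replicates shared RNA or a culture. The first principal component held 72.9% of the variance and separated the 2 groups. Defining cardiomyocyte markers were present at high level. The summed level of 10 of them was 27366 to 28479 CPM in the controls and 30089 to 30644 CPM in the labelled-knockdown libraries, and without Nppa, the 1 member called higher, the other 9 summed to 24095 to 25365 CPM and 24024 to 24969.7 CPM.

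Of 13671 genes tested, 1054 were higher in the labelled-knockdown libraries (7.71%) and 1108 were lower (8.1%), where a call required both a difference of more than 1.5-fold and an edgeR adjusted p under 0.05. Together these are 15.8% of tested genes, and they are the background against which the counts for each gene group are to be read. The groups of libraries did not overlap for 51.9% of tested genes. The median log2 fold change over all tested genes was -0.0028. Folds are ratios of the mean CPM of the 2 groups, while log2 fold changes come from the fit, so the 2 can differ slightly. Rises reached further than falls. The called rises exceeded 8-fold for 128 genes and 64-fold for 24, whereas 11 falls exceeded 8-fold and 2 exceeded 64-fold. Genes called higher took 6.35% to 7.43% of all counts in the controls and 13.5% to 13.96% in the labelled-knockdown libraries. Genes called lower took 5.52% to 5.71% and 3.04% to 3.10%.

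**Figure D2:**
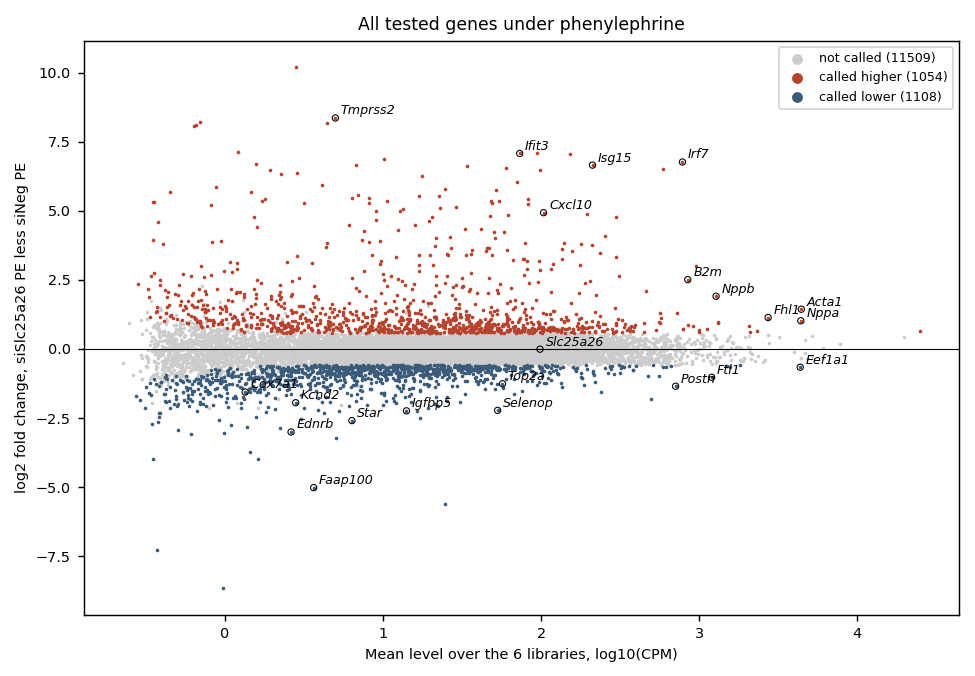
Mean level over the 6 libraries as log10(CPM) (x axis) against the fitted log2 fold change of the labelled-knockdown libraries over the controls (y axis), 1 point per tested gene. Red marks the 1054 genes called higher, blue the 1108 called lower and grey the 11509 not called; the interferon-regulated genes Ifit3, Irf7 and Isg15 lie above 6 and Slc25a26 lies on the zero line.

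Genes of the type I interferon system were among those with the largest rises. In this system, receptors for foreign nucleic acid inside the cell activate interferon regulatory factors (IRFs), these switch on interferon β, and secreted interferon acts through JAK kinases, STAT proteins and IRF9 on genes that carry an interferon-stimulated response element. The products of those genes degrade or sequester viral RNA, tag proteins with ISG15 and raise antigen presentation. Heart muscle cells, like nearly all nucleated cells, carry the receptors and the signalling chain.

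A core form of the interferon-stimulated response element, GAAA followed by any 2 bases and GAAA again, was searched on both strands in the 250 bases before the start of each gene in RefSeq assembly GRCr8, with genes matched by NCBI Gene identifier. It occurs in 3.29% of the 27457 promoters of the RefSeq table. Of the tested genes, 10640 had a promoter there and 2.58% of these held it. Among genes called higher the share was 9.73% (73 of 750 with a promoter), among those that rose over 8-fold 43.8% (39 of 89), among those called lower 2.1% (17 of 810) and among those not called 2.04% (185 of 9080). A match is only a run of letters and was not tested as a binding site. Not every gene that rose had a match, and Mx1, Gbp1, Stat2, Irf9 and Psmb9 had none in their windows. Selenop, which fell, had 1. Among genes that rose over 8-fold the median log2 fold change was 4.35 with a match and 4.42 without. The windows below show it in 8 genes whose transcripts rose, which serve as sensor, effectors, regulator and antigen-presentation genes in the results that follow. These 8 were picked from the genes that hold it. Each line gives the bases around the match nearest to the start, 5′ to 3′ along the gene, with the match or overlapping matches in capitals (TTTC, 2 bases and TTTC is the same motif on the other strand).
Ifih1: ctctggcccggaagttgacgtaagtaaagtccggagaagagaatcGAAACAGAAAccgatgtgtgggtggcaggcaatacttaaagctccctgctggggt
Oas1a: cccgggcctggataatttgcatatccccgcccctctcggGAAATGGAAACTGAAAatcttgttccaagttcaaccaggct
Ifit3: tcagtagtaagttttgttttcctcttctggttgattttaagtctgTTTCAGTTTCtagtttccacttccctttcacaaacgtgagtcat
Rsad2: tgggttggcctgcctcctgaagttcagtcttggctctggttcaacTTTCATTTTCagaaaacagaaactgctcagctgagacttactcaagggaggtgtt
Irf7: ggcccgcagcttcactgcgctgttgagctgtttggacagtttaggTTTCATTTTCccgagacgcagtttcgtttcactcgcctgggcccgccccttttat
Gbp2: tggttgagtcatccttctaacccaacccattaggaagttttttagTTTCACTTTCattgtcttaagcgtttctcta
B2m: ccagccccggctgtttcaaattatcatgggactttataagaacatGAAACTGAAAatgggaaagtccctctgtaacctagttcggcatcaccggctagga
Tap1: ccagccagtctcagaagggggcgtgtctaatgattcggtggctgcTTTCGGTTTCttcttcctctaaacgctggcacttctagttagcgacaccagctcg

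These windows are Ifih1 at chr3:67683973-67684072 (minus strand), Oas1a at chr12:41330386-41330465 (plus strand), Ifit3 at chr1:241527237-241527325 (plus strand), Rsad2 at chr6:48788213-48788312 (minus strand), Irf7 at chr1:205800038-205800137 (minus strand), Gbp2 at chr2:234005651-234005726 (plus strand), B2m at chr3:129549135-129549234 (plus strand) and Tap1 at chr20:4668610-4668709 (minus strand), all in GRCr8. The match ends 49 bases before the start in Ifih1, 25 in Oas1a, 34 in Ifit3, 59 in Irf7 and 21 in Gbp2, and 137 bases before it in Rsad2, 140 in B2m and 111 in Tap1. No such match was found in the windows of the 15 hypertrophic marker or the 24 cell cycle genes with a promoter in the table. With 2.58% of tested genes holding it, lists this short can lack it without differing from the rest. It was found in 14 of 27 antiviral effector genes and 6 of 12 antigen presentation and immunoproteasome genes. It was also in 3 of 13 nucleic acid sensor genes and 1 of 12 chemokine and cytokine genes.

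The sensors of nucleic acid were high in all 3 labelled-knockdown libraries. Of 19 tested members of the list, 12 rose and none fell, with a median log2 fold change of 1.67, and 2 others were too low to be tested. Zbp1, Aim2 and Tlr7, with at most 1, 1 and 2 counts in a control library, entered the test only through the labelled-knockdown libraries. Such entries raise the share called higher. Ddx58, which encodes the RNA sensor RIG-I, was at 30.3, 27.4 and 28.7 CPM in the controls and 402, 383 and 390 CPM in the labelled-knockdown libraries, a 13.6-fold rise. Ifih1, which encodes MDA5, a sensor of long double-stranded RNA, was at 7.89, 9.44 and 10.8 CPM against 104, 108 and 127 CPM. The groups lay far apart for both genes, and the edgeR adjusted p was 4.23e-09 for Ddx58 and 8.05e-08 for Ifih1. Dhx58 (LGP2), a regulator of both sensors, rose 54-fold, and Ddx60, a helicase that assists RIG-I, rose 99.9-fold, from 0.547 to 0.841 CPM in the controls to 59.2 to 76.8 CPM. Zbp1, a sensor of Z-form nucleic acid that can start necroptosis, had 2 counts over the 3 controls and 249 over the labelled-knockdown libraries, a ratio of 122 with a 95% counting interval of 33.5 to 1017.

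The enzymes that act on double-stranded RNA moved in the same direction, with 10 of 11 tested members higher and none lower (median log2 fold change 4.22). Another 5 were too low to be tested. Oas2, with at most 9 counts in a control library, entered the test only through the labelled-knockdown libraries. Oas1a, a 2′,5′-oligoadenylate synthetase that activates RNase L, was at 2.77, 1.72 and 2.10 CPM in the controls and 208, 199 and 179 CPM in the labelled-knockdown libraries, and Oas2 was at 0 to 0.351 CPM and 12.8 to 14.2 CPM. The oligoadenylate synthetase genes are close paralogs, and how reads were shared among them is not known. Eif2ak2, which encodes PKR, the kinase that stops translation on double-stranded RNA, was at 15.4, 22.3 and 25.1 CPM against 109, 125 and 173 CPM. This is a 6.49-fold rise (log2 fold change 2.70, SE 0.21, edgeR adjusted p = 1.95e-05). Adar, which edits adenosine to inosine in double-stranded RNA, rose less, by 2.11-fold, from 103 to 122 CPM to 229 to 245 CPM.

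Antiviral effectors formed the list with the most calls. Of 34 tested members 29 rose and none fell, and the median log2 fold change was 3.02. Another 3 were too low to be tested. Slfn1, with at most 4 counts in a control library, entered the test only through the labelled-knockdown libraries. Mx1, a dynamin-like GTPase that blocks viral nucleocapsids, was at 3.94, 1.27 and 1.64 CPM in the controls and at 270, 319 and 322 CPM in the labelled-knockdown libraries. Ifit3, which helps bind viral RNA, was at 1.17, 1.31 and 0.727 CPM against 137, 154 and 145 CPM, a 136-fold rise with an edgeR adjusted p of 4.23e-09. Rsad2, which encodes viperin, was at 1.87, 2.39 and 1.95 CPM against 144, 136 and 135 CPM. For each of these genes every labelled-knockdown library lay far above every control library. Mx2 rose 90.6-fold and Rtp4, a chaperone of the interferon response, 94.8-fold. Ifit1 stood apart at this level, with 0.469 to 0.841 CPM in the controls and 0.744 to 1.14 CPM in the labelled-knockdown libraries, groups that overlapped and did not pass the test (edgeR adjusted p = 0.392). The Ifit genes are paralogs, and how reads were shared among them is not known.

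The ISG15 system, which attaches a ubiquitin-like protein to others, had 6 of 7 members higher. Isg15 itself was at 5.19, 3.88 and 3.37 CPM in the controls and 463, 426 and 368 CPM in the labelled-knockdown libraries. Uba7, its activating enzyme, rose 42.9-fold, Herc6, its ligase in rodents, 41.8-fold, and Usp18, the protease that removes it and restrains interferon signalling, 29.3-fold. The guanylate-binding proteins and immunity-related GTPases, which attack membranes of intracellular pathogens, had 8 of 9 tested members higher. Another 2 were too low to be tested. Gbp1 was at 1.09, 1.49 and 1.53 CPM against 166, 184 and 210 CPM, and Gbp2 was at 4.97 to 7.42 CPM against 92.1 to 99.9 CPM. Irgm rose 20.4-fold and Ifi47 46-fold. In 2 larger families only some members were called. Of 41 tested TRIM genes 10 rose and 1 fell (3 fell without the first labelled-knockdown library and none without the third), led by Trim30 (122-fold). Another 12 were too low to be tested. Trim14, Trim30 and Trim69, with at most 7, 6 and 6 counts in a control library, entered the test only through the labelled-knockdown libraries. Trim6, also called higher, was low as well, with at most 11 counts in a control library and 31 in a labelled-knockdown library. Of 14 genes in the PARP list 8 rose and none fell, led by Parp14 (12.2-fold). This count includes Dtx3l, which is not a PARP and was called higher.

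Signalling genes had a smaller median than the effectors. Of 30 tested interferon, receptor and JAK-STAT genes 8 rose and none fell (median log2 fold change 0.34). Stat2, a component of the factor that binds the response element, was at 67.4, 60.5 and 60.8 CPM in the controls and 371, 345 and 321 CPM in the labelled-knockdown libraries, a 5.50-fold rise. Irf9, its DNA-binding partner, rose 4.37-fold. Irf7, the regulator that amplifies interferon production, was at 18.6, 12.0 and 12.1 CPM against 1620, 1698 and 1340 CPM, a 109-fold rise (edgeR adjusted p = 2.21e-08). The ligands were near the limit of detection. Ifnb1, the gene of interferon β, had 0 counts in each control library and 4, 7 and 7 counts in the labelled-knockdown libraries, and it did not enter the test. Against a floor of 3 counts over the controls its ratio was 5.90, which leaves out the counting error of the labelled-knockdown counts. Ifna4 had 0 counts in the controls and 1, 1 and 2 in the labelled-knockdown libraries.

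Transcripts of genes for antigen presentation through class I were higher. Of 16 tested antigen presentation and immunoproteasome genes 12 rose and 1 fell, with a median log2 fold change of 1.89. B2m, the light chain of class I molecules, was at 265, 262 and 232 CPM in the controls and 1388, 1543 and 1391 CPM in the labelled-knockdown libraries. Tap1, which pumps peptides into the endoplasmic reticulum, was at 10.5, 9.78 and 10.5 CPM against 159, 150 and 136 CPM. The immunoproteasome subunits Psmb8 and Psmb9 rose 27.9-fold and 12.7-fold. Of 31 constitutive proteasome genes 1 was called higher and none lower, with a median log2 fold change of 0.24. At an edgeR adjusted p under 0.05 at any fold 18 of these 31 were higher and none lower, beside 20.1% of all tested genes each way. Among the RT1 genes, the rat major histocompatibility complex, 17 of 21 tested were higher and none lower, and 11 others were too low to be tested. RT1-CE4, with at most 3 counts in a control library, entered the test only through the labelled-knockdown libraries. RT1-T24-3 was at 0.803 to 0.976 CPM against 47.3 to 51 CPM, and RT1-CE4 had 3 counts in the controls and 127 in the labelled-knockdown libraries, a ratio of 41.6 with a counting interval of 13.9 to 205. RT1 genes are near-identical copies in a polymorphic region, and counts of single members are uncertain. The 1 gene that fell was Cd74, the invariant chain of class II molecules that antigen-presenting leukocytes express, from 11.1, 7.72 and 10.7 CPM to 2.68, 2.55 and 1.72 CPM; it was singled out after its values were seen.

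Chemokines, cytokines and NF-κB targets followed. Of 19 tested chemokine and cytokine genes 15 rose and 1 fell (none fell without the third labelled-knockdown library), but 15 others were too low to be tested, and with at least 10 counts required in every library 9 were called higher. Cxcl10, which attracts T cells, was at 7.73, 5.63 and 6.31 CPM in the controls and 210, 203 and 190 CPM in the labelled-knockdown libraries. Ccl7 rose 20.5-fold to 56.9 to 68.5 CPM, and Ccl5 rose 14.3-fold to 7.79 to 8.74 CPM. Ccl4 and Tnf were at most 0.115 CPM in the controls and reached 4.91 to 6.99 CPM and 2.25 to 4.24 CPM. Of 18 NF-κB factors and targets 10 rose and none fell. Vcam1, an adhesion molecule, rose 4.50-fold, Tnfaip3 (A20), a feedback inhibitor, 2.79-fold, and Nfkbia, the inhibitor IκBα, 1.72-fold. Of 25 cell death genes 8 rose and 1 fell, among them Ripk3 (3.92-fold) and Mlkl (2.93-fold), the kinase and the executor of necroptosis, and Casp8 (2.42-fold), the initiator caspase.

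No leukocyte marker gene was called higher. Of 8 tested macrophage and leukocyte markers 2 fell and none rose, 4 fitted changes lay above 0 and 4 below, and the median log2 fold change was -0.07. The summed level of 12 markers was 60.1 to 69.1 CPM in the controls and 40.98 to 48.99 CPM in the labelled-knockdown libraries. Mrc1, a macrophage receptor, was at 1.37, 1.53 and 1.49 CPM against 0.409, 0.723 and 0.562 CPM, and Lyz2 was at 41.96 to 48.1 CPM against 23.4 to 29.5 CPM. Without Lyz2 the other 11 markers summed to 18.1 to 21.4 CPM and 16.3 to 21.8 CPM, ranges that overlapped. Ptprc, the common leukocyte antigen, had 38 counts over the controls and 43 over the labelled-knockdown libraries and was not tested, and Cd163 had no count in any of the 6 libraries. In bulk RNA, fewer cells of a type and less RNA per cell cannot be told apart.

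The highest fitted rises included genes outside these lists. Tmprss2, a transmembrane serine protease, had 2 counts over the controls and 795 over the labelled-knockdown libraries, a ratio of 391 with a 95% counting interval of 108 to 3234. Hsh2d, an adaptor protein of lymphocyte signalling, had 2 and 701 counts, a ratio of 345 (95.1 to 2852). The exact size of such ratios is set by a few control counts. The groups were nevertheless far apart, with 9.07 to 10.7 CPM for Tmprss2 and 8.37 to 9.10 CPM for Hsh2d in the labelled-knockdown libraries.

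**Figure D3:**
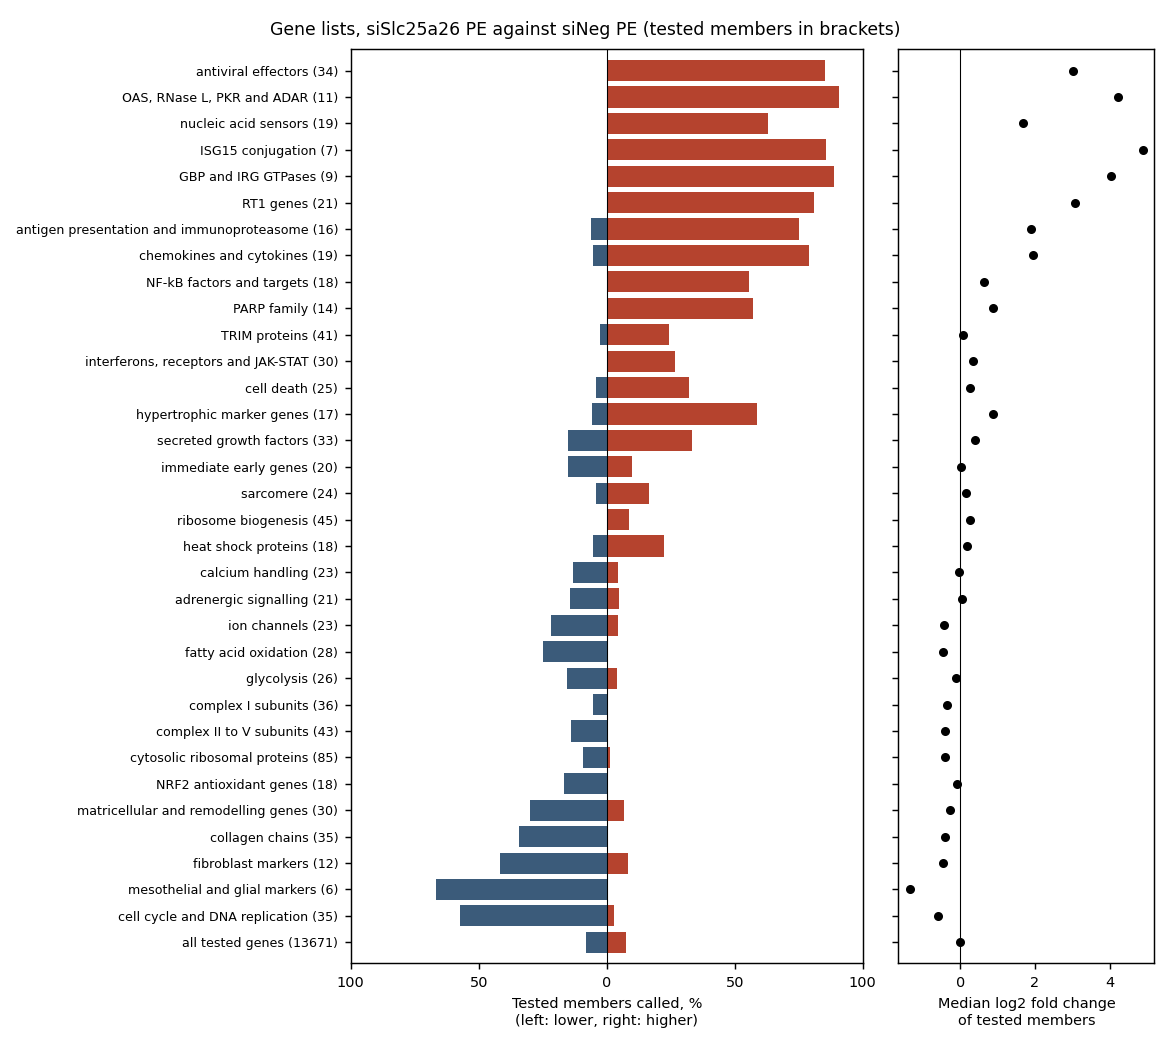
Share of the tested members of each gene list that were called higher (red, to the right) or lower (blue, to the left) in percent, and the median log2 fold change of the tested members (right panel). The number of tested members stands in brackets, and the last line gives all 13671 tested genes; interferon lists lie at the top with shares of up to 10 of 11 called higher, and cell cycle genes at the bottom with 20 of 35 called lower.

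Genes that mark hypertrophic growth were higher in the labelled-knockdown libraries as well. Of 17 tested markers 10 rose and 1 fell (none fell without the first siNeg PE library), with a median log2 fold change of 0.87. Nppb, which encodes the B-type natriuretic peptide, was at 644, 670 and 298 CPM in the controls and 1956, 2091 and 2016 CPM in the labelled-knockdown libraries, a 3.76-fold rise (log2 fold change 1.91, SE 0.26, edgeR adjusted p = 4.93e-04). Nppa, the atrial peptide, was at 3114, 3271 and 2315 CPM against 5674, 6065 and 5940 CPM. Acta1, skeletal actin, was at 3151, 2482 and 1519 CPM against 5534, 6776 and 7109 CPM. The groups did not overlap for any of these genes, and the third siNeg PE library was the lowest for all of them.

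Ctgf, a secreted matrix regulator, rose 2.45-fold, from 281 to 496 CPM to 938 to 1139 CPM. Fhl1, a LIM protein that transmits stretch at the sarcomere, was at 2006, 1861 and 1248 CPM against 3396, 3780 and 4089 CPM, and Csrp3, the muscle LIM protein of the Z-disc, rose 1.92-fold. Actc1, cardiac actin, was at 22044, 19811 and 15781 CPM against 31110, 30081 and 29997 CPM. Without the third siNeg PE library its log2 fold change was 0.52 and no longer above 1.5-fold, and 8 of the 17 markers were called higher. Xirp2, a protein of the intercalated disc, overlapped between groups, with 108, 206 and 155 CPM against 200, 419 and 680 CPM. Its log2 fold change was 1.47 (edgeR adjusted p = 0.0152), and without the same control library the adjusted p was 0.0601. Myh6, the adult α-myosin heavy chain, was at 4385 to 5109 CPM in the controls and 3882 to 3942 CPM in the labelled-knockdown libraries, a difference under 1.5-fold. The actin and myosin genes are close paralogs, and shared reads could move counts between them.

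Fewer genes of the sarcomere list were called. Of 24 tested members 4 rose and 1 fell, with a median log2 fold change of 0.16, and without the third siNeg PE library 1 rose. Flnc, filamin C of the Z-disc, was at 932, 876 and 822 CPM in the controls and 1757, 1712 and 1763 CPM in the labelled-knockdown libraries, with an edgeR adjusted p of 8.16e-06. Synpo2l, an actin-bundling protein, rose 1.61-fold and kept a log2 fold change of 0.56, under the fold threshold, without that library. Myl7, the atrial light chain, fell 1.86-fold, from 20.8 to 25.3 CPM to 11.2 to 14.4 CPM. Actn2, α-actinin of the Z-disc, was at 3952 to 4409 CPM against 4983 to 5581 CPM, a 1.27-fold difference that was under the threshold of size. Outside that list, both Sorbs2, an adaptor of the Z-disc and intercalated disc (1369 to 1574 CPM against 2383 to 2935 CPM), and Lamc1, a laminin chain of the basement membrane (1810 to 1835 CPM against 2798 to 2945 CPM), rose.

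Excitability and adrenergic receptor genes went the other way. Of 23 tested ion channel genes 5 fell and 1 rose, with a median log2 fold change of -0.43. Without the third labelled-knockdown library 3 fell, and without the first 7 fell. Kcnd2, a channel of the transient outward current, was at 3.79, 4.63 and 4.93 CPM in the controls and 1.12, 1.22 and 1.12 CPM in the labelled-knockdown libraries. Scn4b, a sodium channel β subunit, was at 49.2, 44.03 and 52.7 CPM against 13.98, 13.7 and 10.97 CPM. They fell 3.86-fold and 3.78-fold, and the groups did not overlap for either. Kcnj2, the inward rectifier that holds the resting potential, fell 1.58-fold (without the third siNeg PE library its log2 fold change was -0.51, under the threshold of size). Hcn4, the pacemaker channel, was the 1 member called higher, at 65.1 to 77.9 CPM against 93.9 to 120 CPM, and its log2 fold change fell to between 0.49 and 0.55, no longer called, without the first or second siNeg PE library or the first labelled-knockdown library.

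Of 21 adrenergic signalling genes 3 fell and 1 rose. Without the second labelled-knockdown library none rose, without the third siNeg PE library 2 rose, and without the second siNeg PE library 2 fell. Adra1b, a receptor that PE binds, was at 60.5, 53.2 and 65.4 CPM in the controls and 32.3, 26.99 and 25.5 CPM in the labelled-knockdown libraries, a 2.11-fold fall (edgeR adjusted p = 1.01e-04). Adra1d fell 1.70-fold. Adra1a, the third receptor of this class, was at 42.1, 46.1 and 51.2 CPM against 55.5, 63.7 and 73.5 CPM, and its 1.38-fold difference was under the threshold of size. The β1 receptor gene Adrb1 was at 28.4 to 33.2 CPM against 20.9 to 25.5 CPM, also under that threshold. Of 23 calcium handling genes 1 rose and 3 fell, or 1 fell without the second labelled-knockdown library. Casq1, the skeletal calsequestrin, was at 142, 148 and 128 CPM against 276, 278 and 288 CPM, and Hrc, a calcium-binding protein of the sarcoplasmic reticulum, at 153, 158 and 177 CPM against 95.7, 85.2 and 86.3 CPM. Atp2a2, the calcium pump SERCA2, and Pln, its inhibitor phospholamban, differed 1.20-fold and 1.33-fold downwards and were not called.

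Growth signals moved in both directions. Of 33 secreted growth factor genes 11 rose and 5 fell, or 8 rose without the third siNeg PE library. Bmp2 was at 3.87, 4.63 and 3.75 CPM in the controls and 13.01, 14.8 and 13.01 CPM in the labelled-knockdown libraries. Angptl4, an inhibitor of lipoprotein lipase, rose 3.67-fold and Areg, a ligand of the EGF receptor, 2.98-fold, whereas Fgf12, an intracellular modulator of sodium channels, fell 2.25-fold. Immediate early genes were split, with 2 of 20 higher and 3 lower. Egr1 was at 101, 104 and 92.3 CPM against 58.01, 61.4 and 62.3 CPM. Egr2 and Egr3, which encode related zinc finger factors, fell 1.87-fold and 1.80-fold. Atf3, a stress-induced factor, rose 3.18-fold and Ier3 rose 1.69-fold, while Myc, at 23.5 to 26.2 CPM against 33.1 to 34.1 CPM, did not pass the threshold of size. Of 15 genes of MAP kinase feedback 1 rose and 2 fell. Without the first or second siNeg PE library or the first labelled-knockdown library 2 rose, and 1 fell without the second or the third library of either group. Among these phosphatases that damp the kinases, Dusp5 fell 1.75-fold and Dusp8 rose 2.09-fold.

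Energy metabolism genes were lower by small amounts. Of 28 tested fatty acid oxidation genes 7 fell and none rose, with a median log2 fold change of -0.45. An edgeR adjusted p under 0.05 at any fold was reached by 25 of them, all downwards, beside 20.1% of all tested genes. Without the third labelled-knockdown library 4 were called lower. Acsl1, which activates long-chain fatty acids, was at 253, 252 and 316 CPM in the controls and 153, 150 and 147 CPM in the labelled-knockdown libraries. Acaa2 and Hadh, enzymes of the β-oxidation spiral, fell 1.77-fold and 1.69-fold, and Slc27a1, a fatty acid transporter, 1.76-fold. Cpt1b, the carnitine transferase that controls entry into mitochondria, was at 164 to 186 CPM against 114 to 151 CPM, and Acadm at 169 to 174 CPM against 129 to 138 CPM; neither reached 1.5-fold. Ppargc1a, the coactivator PGC-1α, was at 37.99 to 49.7 CPM against 29.2 to 33.8 CPM and was not called.

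Respiratory chain genes showed the same small size. All 36 tested complex I genes had a fitted change under 0, with 32 at an edgeR adjusted p under 0.05, but 2 were called lower, or 1 without the first siNeg PE library or the third labelled-knockdown library. Ndufs1, a core subunit, was at 420 to 450 CPM in the controls and 348 to 380 CPM in the labelled-knockdown libraries, and Ndufc1, an accessory subunit, was called at 72.7 to 88.0 CPM against 49.5 to 53.2 CPM. In complexes II to V, 6 of 43 were called lower and none higher. Cox7a2, a cytochrome c oxidase subunit, was at 342, 297 and 273 CPM against 143, 134 and 119 CPM, and its muscle form Cox7a1 at 2.38, 1.64 and 1.99 CPM against 0.595, 0.990 and 0.449 CPM. None of 22 genes of the TCA cycle and pyruvate dehydrogenase and none of 75 mitochondrial ribosomal protein genes was called in edgeR, but 1 TCA cycle gene was called lower without the first siNeg PE library or the third labelled-knockdown library. At an edgeR adjusted p under 0.05 without the fold limit, 12 and 26 of them were lower and 0 and 3 higher. Of all tested genes 20.1% were lower and 20.1% higher at that limit.

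Of 26 glycolysis genes 4 fell and 1 rose. Slc2a4, the insulin-responsive glucose transporter GLUT4, fell from 101, 89.6 and 84.3 CPM to 54.3, 60.7 and 57.3 CPM. Pfkm, the muscle phosphofructokinase, fell 1.61-fold and Pgam2, the muscle phosphoglycerate mutase, 1.88-fold. Slc2a1, another glucose transporter, was the 1 called higher, with a log2 fold change of 0.67. Pfkp and Pgam1 were higher by 0.46 and 0.30 on the log2 scale, under the fold threshold. Mb, myoglobin, was at 2010, 1827 and 1894 CPM against 1408, 1221 and 1032 CPM, and its log2 fold change of -0.65 became -0.52, under the fold threshold, without the third labelled-knockdown library. Slc25a4, the adenine nucleotide carrier of heart, changed likewise, from -0.63 to -0.57. Among 39 tested carriers of the Slc25 family, to which Slc25a26 belongs, 4 rose and 2 fell, or 4 fell without the first siNeg PE library and 1 without the third labelled-knockdown library.

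Few genes of S-adenosylmethionine metabolism itself were called. Of 26 tested genes of its synthesis, use and one-carbon metabolism 1 rose and 1 fell, the median log2 fold change was -0.0060, and none rose without the second siNeg PE library or the first or the third labelled-knockdown library. Without the first siNeg PE library or the second or the third labelled-knockdown library 2 fell. Gamt, which uses the methyl donor to make creatine, was at 16.2, 20.7 and 19.7 CPM in the controls and 9.56, 9.06 and 7.30 CPM in the labelled-knockdown libraries. Ahcy, which clears S-adenosylhomocysteine, was at 82.1 to 87.1 CPM against 66.1 to 68.8 CPM, a difference under 1.5-fold. Of 34 mTORC1 pathway genes, which sense nutrients including this metabolite, 3 fell and none rose. Sesn1 and Sesn3, sestrins that hold the pathway back, fell 1.82-fold and 1.63-fold, and Mtor, at 83.5 to 91.9 CPM against 102 to 112 CPM, was not called.

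The machinery of translation showed opposite movements in its 2 parts, mostly under 1.5-fold. Of 85 tested cytosolic ribosomal protein genes 8 fell and 1 rose, and the share that fell is near the 8.1% of all tested genes. The median log2 fold change was -0.41, and 64 were lower at an edgeR adjusted p under 0.05 at any fold, beside 20.1% of all tested genes. Rplp1 and Rps14 had the largest falls, with log2 fold changes of -1.83 and -1.56. Without the third siNeg PE library 22 were called lower, and without the first siNeg PE library or the first or the third labelled-knockdown library 2 to 3 were called higher. Rplp1, of the ribosomal stalk, was at 864, 793 and 672 CPM in the controls and 240, 209 and 207 CPM in the labelled-knockdown libraries, and Rps14, of the small subunit, at 382, 377 and 313 CPM against 142, 114 and 109 CPM. All 3 labelled-knockdown libraries lay below every control library for both genes. Ribosomal protein genes have many processed copies among which reads can be split, and the symbol Rps19 stood for 2 entries of which 1 rose and the other fell. Eef1a1, the elongation factor that brings aminoacyl-tRNA, was at 5177 to 5465 CPM against 3327 to 3466 CPM, and it was the 1 of 32 translation factor and aminoacyl-tRNA synthetase genes that was called.

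Ribosome biogenesis genes, which make and process ribosomal RNA, lay on the other side. Of 45 tested 4 rose and none fell, and the share that rose is near the 7.71% of all tested genes. At an edgeR adjusted p under 0.05 at any fold 24 were higher and none lower, beside 20.1% of all tested genes each way. The median log2 fold change was 0.27. Rrp12, which exports pre-ribosomes, was at 23.3, 24.7 and 22.03 CPM in the controls and 47.7, 44.3 and 48.1 CPM in the labelled-knockdown libraries. Sdad1 rose 1.59-fold and Polr1e, a subunit of RNA polymerase I, 1.54-fold. Polr1a, its largest subunit, was at 34.5 to 36.1 CPM against 49.7 to 51.1 CPM, a difference just under 1.5-fold.

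Stress response genes were mixed. Of 18 heat shock genes 4 rose and 1 fell, or 2 rose without the third siNeg PE library. Hspb1, a small chaperone, rose from 439, 403 and 323 CPM to 766, 770 and 714 CPM. Hspa1a, the inducible Hsp70, went from 2.62, 3.02 and 4.51 CPM to 0.558, 0.571 and 1.09 CPM. Of 18 NRF2 antioxidant genes 3 fell and none rose (1 rose without the third labelled-knockdown library), with Nqo1, a quinone reductase, at 258, 271 and 264 CPM against 121, 108 and 95.02 CPM and Gsta4, a glutathione transferase, 2.71-fold lower. Ftl1, the ferritin light chain, was at 1689, 1677 and 1458 CPM against 822, 810 and 740 CPM. Of 22 genes of the ATF4 integrated stress response 2 rose and 1 fell, and the fall was called only with all libraries or without the first siNeg PE library. Ddit3 (CHOP) rose 1.69-fold, while Asns, a classical target, was at 108 to 115 CPM against 90.0 to 101 CPM and not called. The other lists gave the following counts. Of 14 p53 targets 3 rose and 2 fell, of 29 sterol and fatty acid synthesis genes 2 rose (1 without the third siNeg PE library) and 1 fell, of 17 circadian clock genes 2 rose and 1 fell (2 without the second siNeg PE library), and of 20 endoplasmic reticulum chaperones 1 rose (none without the third labelled-knockdown library). Of 21 cardiac transcription factor genes and of 15 PGC-1 and nuclear receptor regulators 1 each rose and none fell, the regulator no longer called without the first or the third siNeg PE library or the second or the third labelled-knockdown library (1 transcription factor gene fell without the first labelled-knockdown library, and 1 regulator without the first siNeg PE library), and of 13 genes of the RNA interference machinery none was called in edgeR, where 2 were higher and 1 lower at an adjusted p under 0.05 at any fold.

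**Figure D4:**
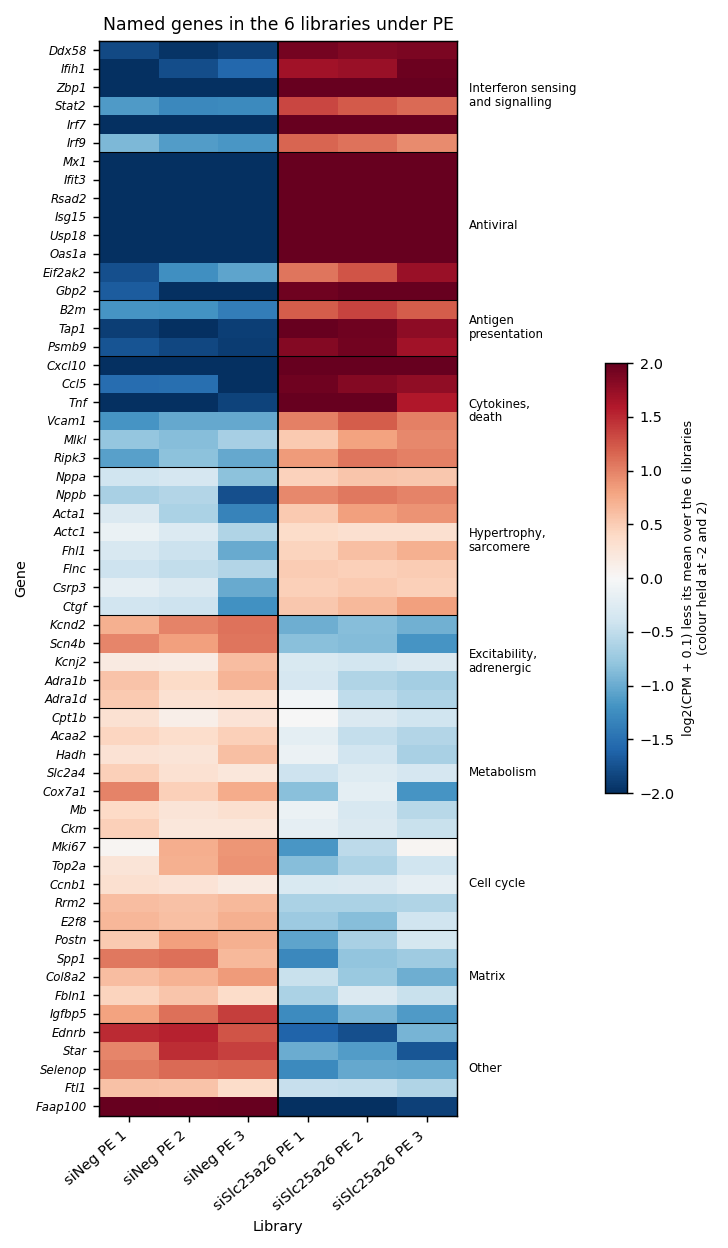
Level of 58 named genes (rows) in each of the 6 libraries under PE (columns), as log2(CPM + 0.1) less the mean of the gene over the 6 libraries, with the colour held at -2 and 2. Red is above and blue below the gene's mean; most genes take opposite colours in the 3 controls and the 3 labelled-knockdown libraries, and the third siNeg PE library is the lowest control for Nppb, Acta1 and Fhl1.

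Cell cycle genes were the list with the most falls. Of 35 tested genes 20 fell and 1 rose, with a median log2 fold change of -0.60, and leaving out 1 library gave 16 to 20 falls. Top2a, the topoisomerase of dividing cells, was at 61.4, 84.1 and 95.6 CPM in the controls and 28.4, 33.3 and 38.99 CPM in the labelled-knockdown libraries. Rrm2, a ribonucleotide reductase subunit, was at 187, 184 and 192 CPM against 79.0, 78.8 and 80.6 CPM, with an edgeR adjusted p of 4.12e-07. E2f1 and E2f8, regulators of S-phase genes, fell 2.24-fold and 2.51-fold. These 4 genes did not overlap between groups. Mki67, a proliferation marker, did overlap, at 45.6, 73.7 and 82.5 CPM against 19.9, 31.1 and 46.1 CPM. It was called (log2 fold change -1.06, edgeR adjusted p = 0.0187) but had adjusted p values of 0.0646 to 0.0737 without the second siNeg PE library, the third siNeg PE library or the second labelled-knockdown library. Mcm2 and Ccnb1, of replication licensing and mitosis, differed 1.24-fold and 1.43-fold downwards and were not called. Ccnd1, cyclin D1, was the 1 that rose, from 63.7 to 86.5 CPM to 119 to 134 CPM, and was singled out after its values were seen.

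Genes of the extracellular matrix and of fibroblasts were lower. Of 35 collagen chain genes 12 fell and none rose, or 1 rose without the first siNeg PE library, and of 30 matricellular and remodelling genes 9 fell and 2 rose. Postn, periostin, made by activated fibroblasts, was at 910, 1119 and 1029 CPM in the controls and 303, 401 and 496 CPM in the labelled-knockdown libraries. Spp1, osteopontin, was at 19.8, 20.4 and 14.9 CPM against 3.83, 5.44 and 5.73 CPM. Col8a2 fell 2.71-fold and Col11a1 2.505-fold, while Col1a1, the main chain of type I collagen, was at 6464 to 7167 CPM against 5201 to 5730 CPM, under the threshold of size.

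Of 12 fibroblast markers 5 fell and 1 rose, none rising without the third siNeg PE library or the second labelled-knockdown library, and their summed level was 12678 to 13430 CPM in the controls and 9440 to 10310 CPM in the labelled-knockdown libraries. Dcn, decorin, fell 1.84-fold, Fbln1, fibulin 1, 1.87-fold and Thy1, a surface protein of fibroblasts, 1.86-fold. The 8 mesothelial and glial markers summed to 19.1 to 25.2 CPM and 10.3 to 13.97 CPM, and 4 of 6 tested fell, with S100b at 2.56 to 3.28 CPM against 0.449 to 0.990 CPM. Mural cell markers summed to 1907 to 2375 CPM and 2171 to 2275 CPM, with 1 of 10 higher and 3 lower. Leaving out any 1 library gave 1 to 2 lower, with 1 lower without the second labelled-knockdown library. Of these markers 2 were higher without the first or second siNeg PE library or the first or the third labelled-knockdown library. Endothelial markers summed to 29.1 to 33.2 CPM and 32.5 to 35.7 CPM, with none of 8 tested called, or 1 lower without the second siNeg PE library. The part of such cells in the falls of matrix and cell cycle genes was not tested.

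With symbols that begin with LOC or RGD left out, the largest falls were in genes of varied function. Faap100, a member of the Fanconi anaemia DNA repair core, was at 8.79, 5.67 and 6.73 CPM in the controls and 0.112, 0.228 and 0.300 CPM in the labelled-knockdown libraries, a 33.1-fold fall (log2 fold change -5.02, SE 0.31, edgeR adjusted p = 3.97e-06). Myo16, an unconventional myosin, fell 9.39-fold. Ednrb, the endothelin B receptor, was at 4.84, 5 and 4.13 CPM against 0.483, 0.419 and 0.824 CPM. Star, which moves cholesterol into mitochondria for steroid synthesis, was at 8.75, 12.5 and 11.5 CPM against 2.16, 1.98 and 1.27 CPM. All 3 labelled-knockdown libraries lay under every control library for these genes. Selenop, the selenium carrier of plasma, fell 4.67-fold from 83.4 to 90.2 CPM to 16.7 to 19.9 CPM, with an edgeR adjusted p of 1.35e-07. Igfbp5, which binds insulin-like growth factors, fell 4.72-fold, Pnoc, the precursor of nociceptin, 5.68-fold, Mustn1, a nuclear protein of muscle and skeleton, 5.83-fold, Cpxm2 4.94-fold, Ypel1 4.81-fold and Gsta5, a glutathione transferase with close paralogs, 4.69-fold. An unnamed transcript, BGIG10116_36154, was at 70.6, 41.7 and 31.7 CPM against 0, 2.97 and 0 CPM, and DESeq2 did not call it (adjusted p = 0.0662).

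The same siRNA contrast without PE was set beside these values. There 1233 of 13829 tested genes were higher (8.92%) and 996 were lower (7.2%). In 13508 genes tested in both, 1023 were higher under PE and 1184 without PE, and 581 were higher in both, which is 56.8% of the first and 49.1% of the second. For falls the figures were 1084, 942 and 466, or 43% and 49.5%. Of the genes higher under PE 5 were lower without it, and of those lower under PE 14 were higher without it. The difference between the contrasts was tested in a fit of all 12 libraries, where 305 of 14097 genes (2.16%) had a higher and 471 (3.34%) a lower change under PE. Of the 437 genes called higher under PE only, 125 were also called in that test, as were 185 of the 604 called lower under PE only.

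Interferon genes were high in both contrasts, and those whose difference was called had smaller changes under PE. Of 34 tested antiviral effectors 12 had a called difference and each of these was lower under PE. The log2 fold change of Mx1 was 7.06 under PE and 8.44 without, and that of Ifit3 7.08 and 8.20. Hypertrophy genes went the other way, with 5 of 17 markers called for a larger change under PE and none for a smaller one. Acta1 had a log2 fold change of 1.44 under PE and -0.52 without, Fhl1 1.14 and -0.28, and Ctgf 1.29 and -0.16. Nppa and Nppb were called higher in both contrasts, at 1.02 and 1.14 for Nppa and 1.91 and 1.97 for Nppb. The difference between the contrasts was -0.14 (SE 0.23) for Nppa and -0.07 (SE 0.37) for Nppb, and neither was called. Kcnd2 and Scn4b, at -1.95 and -1.92 under PE, were at -0.19 and -0.24 without PE. Of 35 cell cycle genes 3 had a called difference, all lower under PE, among them Top2a (-1.26 against -0.12) and Rrm2 (-1.24 against -0.54).

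**Figure D5:**
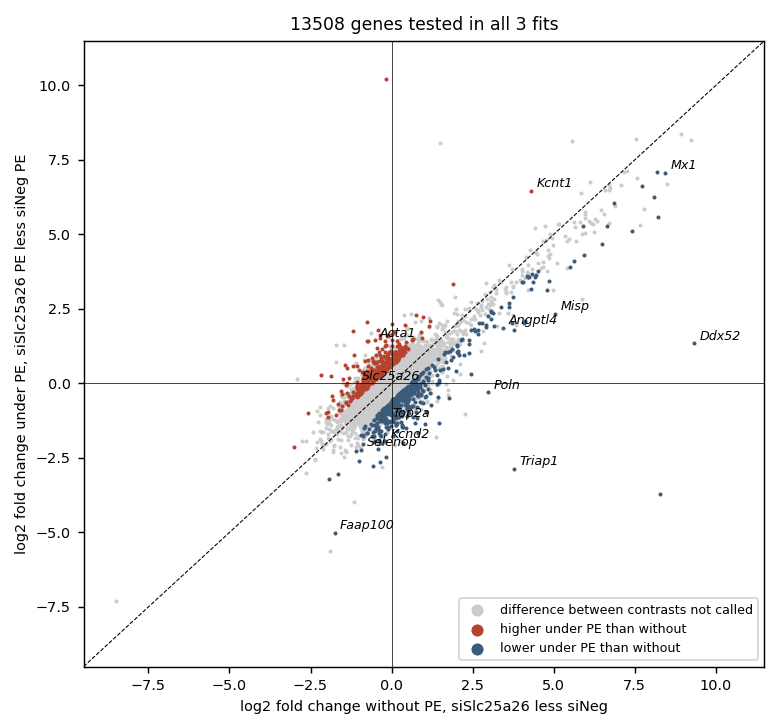
Fitted log2 fold change of siSlc25a26 over siNeg libraries without PE (x axis) against that under PE (y axis) for 13508 genes tested in all 3 fits, with the line of equality dashed. Red and blue mark genes whose change was called higher or lower under PE than without; Slc25a26 lies near -1 on the x axis and at 0 on the y axis, and Ddx52, with 0 counts in every siNeg library without PE, Triap1 and Poln lie far to the right of the line.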

How the data were processed

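RNA of neonatal rat ventricular myocytes gave 12 libraries in 4 groups of 3, and the 6 under PE are compared. Estimated counts per gene, not normalized, were deposited in one table, in which about 21.0% to 21.2% of values were not whole, and FPKM values (fragments per kilobase, scaled to the mapped total) were deposited in another, both made by the authors. The submitters' processing notes name HISAT, Bowtie2 and the Rnor_6.0 build, and their versions and settings are not given in the sources used here. The paper given with the series describes siRNA against Nap1l5 rather than Slc25a26 in NRVMs and does not describe this comparison. Groups follow the labels, and the paper was read for style, and no values or methods were taken from it.

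Counts were rounded and tested with edgeR 4.0.16 (R 4.3.3): filterByExpr, TMM, and the quasi-likelihood F-test on the 6 libraries, with Benjamini-Hochberg adjustment over all tested genes. A gene was called at a fold above 1.5 and an adjusted p under 0.05, and the SE is the size of the log2 fold change divided by the square root of F. The same fit was made without PE, and the difference between the contrasts was tested over all 12 libraries. Scripts were tested on simulated data. Alternatives were DESeq2 1.42.0, its size factors, limma 3.58.1 (voom, and log2(FPKM + 1) or log2(FPKM + 0.1)), other filters, a replicate block, all 12 libraries in one fit, and leaving out each library.

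Of 18469 genes in the tables, 16962 identifiers (91.8%) matched the RefSeq gene table of GRCr8. Promoters came from RefSeq and were matched by gene identifier. The named genes came from a rule: the target, the 12 largest rises and falls that had at least 50 counts in each library of the higher group and did not overlap, the 10 called genes with the highest CPM in each direction, and in each gene list the first 3 entries and up to 4 called members with the largest change, plus the 5 largest differences between contrasts each way. The text names a subset of these, and some results are not reported here. Gene lists and members were chosen with earlier results of these data known.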

Additional observations from a re-analysis of the deposited data

Results flagged for a closer look

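The genes given here are those named by the rule whose change with the siRNA under PE differed from the change without PE, by the edgeR test of that difference over all 12 libraries at an adjusted p under 0.05 and a fold above 1.5. Each value is the log2 fold change under PE less that without PE, as fitted over the 12 libraries, and can differ slightly from the difference of the 2 separate fits. Slc25a26 itself differed by 1.06 (SE 0.13), from -1.08 without PE to -0.01 under PE.

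Interferon and inflammatory genes rose in both contrasts, and the difference was -0.65 for Ifih1, -1.12 for Ddx60, -0.95 for Eif2ak2, -1.39 for Mx1, -1.13 for Ifit3 and -0.81 for Rsad2. It was -0.69 for Psmb9, -0.60 for Parp14 and -0.90 for Vcam1.

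Among muscle genes the difference was 1.95 for Acta1, 0.92 for Actc1, 1.43 for Ctgf, 1.40 for Fhl1, 0.67 for Flnc, 0.63 for Synpo2l and 0.71 for Lamc1. Genes of excitability, calcium and adrenergic signalling lay on the other side, at -0.61 for Hrc, -1.77 for Kcnd2, -1.69 for Scn4b, -0.82 for Kcnj2, -0.81 for Adra1b, -0.82 for Adra1d and -0.84 for Adrb1.

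Among growth signals the difference was 0.82 for Bmp2, -1.58 for Angptl4, -0.75 for Fgf12, 0.75 for Dusp8 and -0.75 for Dusp5. In metabolism it was -0.60 for Acaa2, -0.80 for Hadh, -0.83 for Ppargc1a, 0.72 for Slc2a4 and -0.77 for Gamt. Slc2a4 was lower in both contrasts and fell more without PE, by 1.41 on the log2 scale. Rrp12 differed by 0.95, Hspb1 by 0.63, Gsta4 by -0.62, Top2a by -1.15 and Rrm2 by -0.72.

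Of the genes with the largest falls under PE, Faap100 differed by -3.28, Myo16 by -1.31, Star by -1.62, Pnoc by -2.37, Ypel1 by -1.17 and Selenop by -1.31. Pnoc was too low to be tested without PE, so its difference comes from the fit of all 12 libraries alone.

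With symbols that begin with LOC or RGD left out and at least 50 counts required in each library of the highest group, the most positive differences were 2.81 for the unnamed transcript BGIG10116_30870, 2.21 for Dusp26, 2.16 for Kcnt1, 2.14 for Rai2 and 2.10 for Bean1. Kcnt1 had 2, 0 and 1 counts in the siNeg PE libraries, so the size of its difference rests on a group at the floor. Rai2 was called in opposite directions, at 1.41 under PE and -0.74 without. The most negative were -2.74 for Misp, -3.30 for Poln, -6.66 for Triap1 and -7.91 for Ddx52. Ddx52 had 0 counts in each siNeg library without PE and 75, 100 and 79 in the siSlc25a26 libraries without PE, so its fitted value depends on the prior count and its size is not a measurement. Misp had 1, 4 and 4 counts in the siNeg libraries without PE. Under PE the groups overlapped for Poln, Triap1 and Ddx52. Ddx52 was at 1.33, 3.36 and 0.803 CPM in the controls and 2.60, 7.38 and 4.08 CPM in the labelled-knockdown libraries.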

How the results depend on the processing

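The numbers of genes called under PE stayed within 1.5 times the main count in all settings tried except one. Under limma on log2(FPKM + 1), 623 genes were higher, of which 621 were among the 1054, and a fold change on this scale understates the change of low genes. Under the same setting 452 genes were lower without PE and 164 had a higher change under PE than without. With log2(FPKM + 0.1), 768 had a lower change under PE. Of the genes with a called difference between the contrasts, 39.3% were higher under PE, against 23.4% and 22.1% with the pseudocounts of 1 and 0.1, whose median differences over all genes were -0.11 and -0.14. The cause was not tested. The sign of the change of Slc25a26 turned with limma-voom (log2 fold change 0.0044), with the replicate block (0.0032) and with all 12 libraries in one fit (0.0045), and it was called in none of them. Without one library it ran from -0.13 to 0.084. Leaving out each library gave 929 to 1075 genes higher and 973 to 1099 lower under PE, 1034 to 1475 higher and 881 to 1139 lower without PE, and 220 to 326 higher and 301 to 646 lower for the difference, where 301 was reached without the third siNeg PE library. Of 144 named genes called under PE, 130 could be tested in every setting, and 117 of these were called in all of them. The other 14 did not reach 10 counts in every library. No called named gene turned its direction in a setting where it was tested.

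Libraries with the same replicate number in the 2 PE groups had correlations of deviations from their group means of 0.23, -0.0015 and 0.20. Those between replicates 1 and 3 of different groups were -0.30 and -0.12. The second principal component, with 10.8% of the variance, was at 20.2, -5.95 and -13.9 in siNeg PE replicates 1 to 3. In siSlc25a26 PE it was at 18.2, 2.85 and -21.4. Replicates thus lay in the same order in both groups on this component, and its source was not tested. The main fit took no pairs. With the replicate block 2195 genes were called under PE against 2162, and 945 differences between contrasts against 776. Depth limits genes of a few counts such as Ifnb1, and 4798 genes were not tested.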
